A study of Mus musculus with 6 samples.

Results

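Nuclear genes for the subunits of the mitochondrial respiratory chain and of ATP synthase were examined in the liver of mice that drank source water or distilled water. They were taken as every probe set of the array whose only gene symbol begins with Ndufa, Ndufb, Ndufc, Ndufs or Ndufv (complex I), is Sdha, Sdhb, Sdhc or Sdhd (complex II), or begins with Uqcr (complex III), Cox4 to Cox8 (complex IV) or Atp5 (complex V, ATP synthase). Assembly factors named Ndufaf or Sdhaf were left out. The rule uses no measured value and found 150 of 22626 probe sets, for 79 of 12393 genes. Complex I had 34 genes, complex II 4, complex III 8, complex IV 16 and complex V 17. Another 8 probe sets carry a subunit symbol together with further symbols, such as a pseudogene, and were not assigned to a gene.

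All mice were male C57BL/6J under a 12-h light and 12-h dark cycle, and were assigned at random to distilled water (control) or to drinking source water, for 90 d. Each group held 10 mice, of which 9 gave liver for the arrays, and each of the 3 arrays per group received RNA from a homogenate of 3 livers. Each value thus averages 3 mice, which hides part of the variation between animals. Neither the age of the mice nor the make-up of the source water is known from the labels.

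The respiratory chain passes electrons from NADH (complex I) and from succinate (complex II) through ubiquinone to complex III, cytochrome c and complex IV, which reduces oxygen. Complexes I, III and IV pump protons across the inner mitochondrial membrane, and complex V uses the returning protons to make ATP. Each complex except II also holds subunits encoded by mitochondrial DNA, which are no members here. In hepatocytes this system pays for urea synthesis, gluconeogenesis and lipid synthesis.

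Values are log2 signals of the authors' RMA summary, and a difference is source water minus control on that scale. Array medians lay between 5.79 and 5.86. The liver label fits the markers: 8 of 8 hepatocyte genes lay in the top of the array, with mean signals of 12.64 to 14.91, and the mean of this list was 14.27 to 14.39 on the control arrays and 14.12 to 14.35 on the source water arrays. Muscle genes (7 of 7 measured) had mean signals of 4.0 to 5.71, which is low on this array. The 3' minus 5' signal of the actin control probe sets was 1.24 to 1.45 over the 6 arrays. In bulk liver, fewer cells of a type and less RNA per cell cannot be told apart.

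No subunit passed the test. With limma and Benjamini-Hochberg adjustment over all probe sets, 0 of 150 subunit probe sets had an adjusted p under 0.05, where 0.0398% of all probe sets did. Limma-trend also called 0 subunit probe sets, beside 35 over all probe sets. The unmoderated statistic called 0 over all probe sets, so its count for the subunits could only be 0. At an unadjusted p under 0.05, 1 subunit probe set was counted, a lower one of Sdhd, against 6.02% of all probe sets (3.43% higher, 2.59% lower). Counted by genes, 0 of 79 passed the adjusted threshold, as 0.0323% of all genes did, and 0 had an unadjusted p under 0.05, where 6.76% of all genes did. Among the 437 genes at least as bright as the median subunit, a comparison chosen after the values were seen, 0.229% passed the adjusted threshold and 9.38% had an unadjusted p under 0.05. The unmoderated statistic, which uses each probe set's own spread, counted 8 of 150, beside 5.52% of all probe sets. The authors' deposited table lists 11 of the 150 with a p-value under 0.05, against 6.81% of all its probe sets.

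The intervals show how large a difference these arrays leave possible. Each gene was represented by its probe set of highest mean. The 95% interval of the difference lay within 1.5-fold in both directions for 77 of 79 subunit genes, for 81.2% of all genes and for 84.2% of the equally bright ones. It did so for 138 of the 150 probe sets and for 81.4% of all probe sets. The exceptions among the genes were Ndufv3 (-0.27 to 0.63) and Cox6b2 (-0.09 to 0.91). The half-width of the interval had a median of 0.25. In all, 78 of 79 subunit genes differed by less than 0.25 between the groups, and 86.3% of all genes did. None of the subunits differed by 1 or more on the log2 scale, which 60 of the 12393 genes did.

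**Figure D1:**
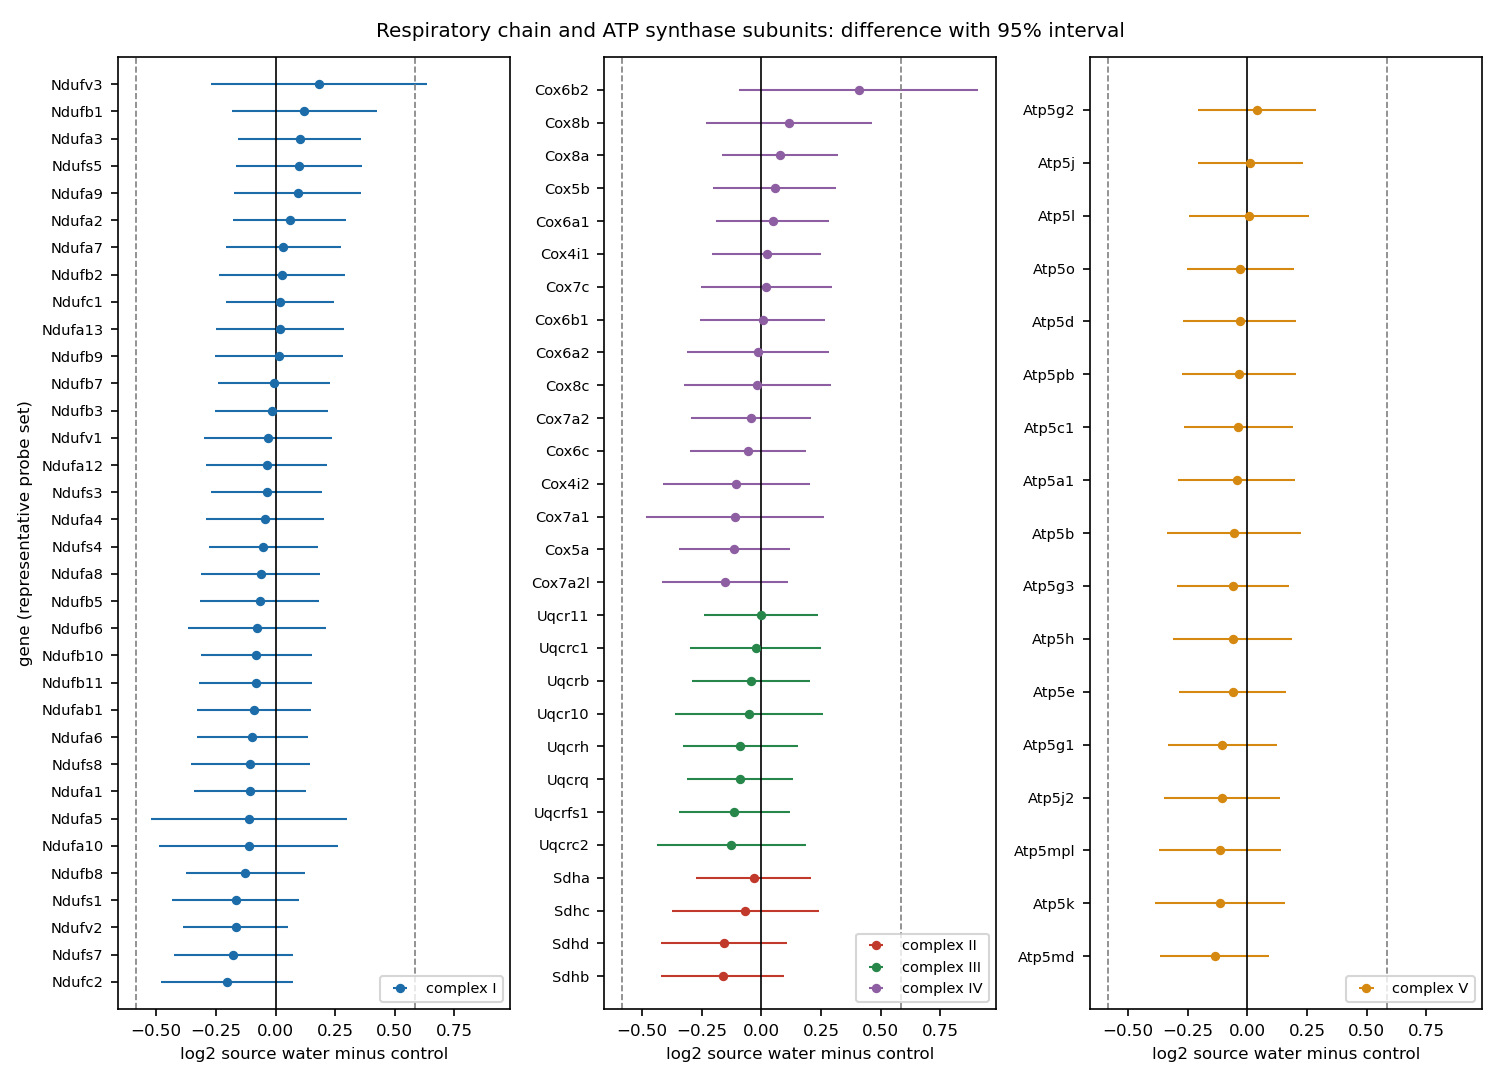
Log2 difference, source water minus control, of the 79 subunit genes with limma's 95% interval, in panels for complex I, complexes II to IV and complex V. All intervals include 0, and of the dashed lines at 1.5-fold in either direction 1 is crossed by Ndufv3 and by Cox6b2 alone.

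The small differences leaned to the lower side. Of the 79 genes 57 were lower in source water, 72.2%, with a median difference of -0.045, beside 50.5% and -0.002 over all genes. The median was -0.039 after a repeated quantile normalization and -0.029 with arrays centred on their medians. Among the 437 equally bright genes 51.5% were lower and the median was -0.003. By probe sets, 106 of 150 were lower, against 52.6% of all. Marker lists of cell types are given beside it. Of the macrophage and leucocyte list 6 of 7 genes were measured, with a median difference of 0.28 and 0 at an unadjusted p under 0.05, and the mean of the list was 6.86 to 7.30 on the control arrays and 7.09 to 7.49 on the source water arrays. Of the 5 stellate and endothelial genes, with list means of 5.85 to 6.10 and 6.10 to 6.28, the collagen gene Col3a1 differed by 1.33 ± 0.27 without overlap (limma adjusted p = 0.202), and the median was -0.04. Kdr, Des, Col1a1 and Pecam1 of that list differed by -0.23, -0.06, -0.04 and 0.00, with overlap. Medians of the bile duct, erythroid, adipose and muscle lists were 0.03, 0.02, 0.01 and 0.05. That of the hepatocyte list was -0.03, with 0 of 8 genes at an unadjusted limma p under 0.05. The part of these cell types in the lower subunit values was not tested. No test was run on the lean, because the genes share the same 6 arrays and are not independent. Averaged over all subunits, the deviation from each gene's mean was 0.024, 0.002 and 0.032 on control arrays 1 to 3 and -0.042, -0.004 and -0.012 on source water arrays 1 to 3. The control arrays lay above the source water arrays in this average, but control 2 and source water 2 differed by only a few thousandths.

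**Figure D2:**
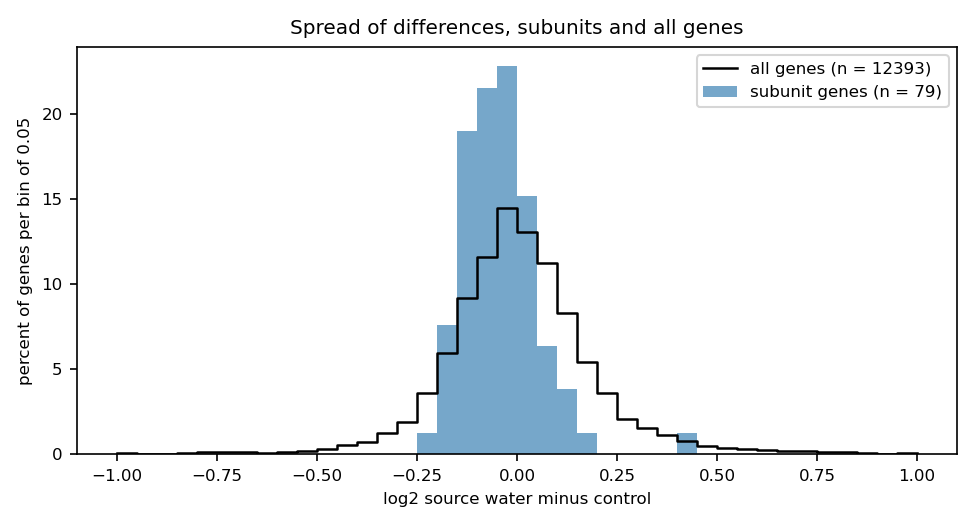
Share of genes in bins of 0.05 of the log2 difference, for the 79 subunits (bars) and all 12393 genes (line). The subunits lie closer to 0 than all genes do, with their median at -0.045, and 60 of all genes lie beyond the plotted range.

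The lean is given by complex as a description. Lower genes numbered 23 of 34 in complex I (median difference -0.047), 4 of 4 in complex II (-0.113), 8 of 8 in complex III (-0.070), 8 of 16 in complex IV (-0.006) and 14 of 17 in complex V (-0.055). The sign of the complex IV median was not stable, with 0.010 after centring on array medians. Without control array 1 the medians of complex II and complex V were -0.040 and -0.016. For complex II, control 1 had a mean deviation of 0.128, control 2 of 0.053 and control 3 of -0.023, against -0.062, -0.089 and -0.006 on the source water arrays. The groups thus overlapped for complex II, as they did for complexes I, III and IV. For complex V the control arrays were at 0.040, 0.019 and 0.024 and the source water arrays at -0.059, -0.010 and -0.014, so the groups did not overlap. Whether one complex differed from another was not tested.

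**Figure D3:**
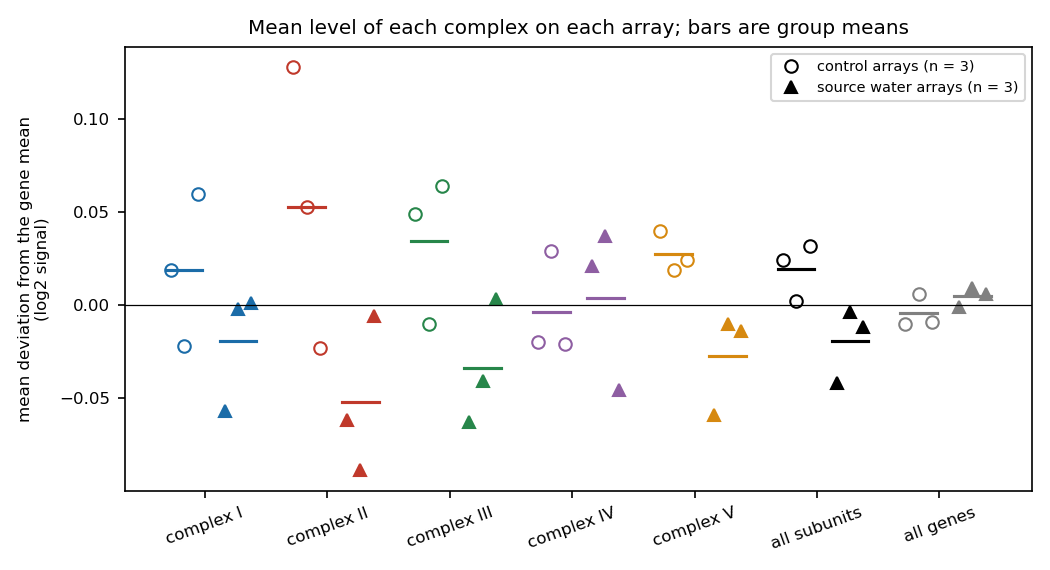
Mean deviation of a complex's genes from their own means (log2 signal) on each array, with control arrays as open circles and source water arrays as filled triangles, and bars at the group means. Groups separate for complex V and for all subunits together, by less than 0.1, and overlap for complexes I to IV.

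Among the 34 genes of complex I, the core subunits that carry electrons from NADH to ubiquinone were all slightly lower. Ndufv2, an iron-sulfur subunit of the NADH-oxidising module, measured 11.94, 11.99 and 12.02 in control and 11.85, 11.78 and 11.82 in source water. Every source water array lay below every control array, and the difference was -0.17 ± 0.10 (SE, n = 3 per group, limma adjusted p = 0.962). Its other probe sets differed by -0.17 and -0.12.

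Ndufs7, which holds the last iron-sulfur cluster before ubiquinone, measured 11.28, 11.40 and 11.52 in control and 11.26, 11.17 and 11.25 in source water. These groups did not overlap either, by a margin far smaller than their spread, and the difference was -0.18 ± 0.11 (limma adjusted p = 0.976). Ndufs1, the largest iron-sulfur subunit, measured 10.30, 10.16 and 10.36 in control and 10.08, 9.99 and 10.25 in source water. Its groups overlapped, with a difference of -0.17 ± 0.12. Ndufv1, which binds NADH and flavin, differed by -0.03, and Ndufs3 and Ndufs8 by -0.04 and -0.11.

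The accessory subunits of complex I held both ends of its range. Ndufc2 had the most negative difference of all 79 genes, at -0.20 ± 0.12, with 12.11, 11.92 and 12.13 in control and 11.80, 11.74 and 12.02 in source water (limma adjusted p = 0.97). Source water arrays 1 and 2 were below all control arrays and array 3 was within their range. At the other end, Ndufv3 differed by 0.18 ± 0.20. It measured 11.82, 12.56 and 12.25 in control and 12.39, 12.61 and 12.18 in source water, so that arrays of 1 group differed by more than the groups did. Ndufs4, an accessory subunit whose loss causes Leigh syndrome in humans, differed by -0.05 by its brightest probe set, and by -0.17 and 0.18 by its other probe sets. Counting only genes whose groups did not overlap, complex I had 2, both lower, of 34.

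Over all complexes, 6 subunit genes had groups that did not overlap. All 6 were lower in source water, where 5.03% of all genes were lower without overlap. None was higher, where 6.51% of all genes were. In either direction the share was 11.5% over all genes, and among the equally bright genes it was 16.7%, with 8.92% lower and 7.78% higher. The 6 lower genes are 7.59% of the 79, above the 5.03% of all genes and below the 8.92% of the equally bright genes. Besides Ndufv2 and Ndufs7 they were Uqcrfs1, Uqcrq, Atp5g1 and Atp5md. By probe sets, 15 of 150 were lower and 3 higher without overlap, beside 5.14% and 5.52% of all probe sets (10.7% in either direction), and probe sets of 1 gene share its transcript.

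Complex II, succinate dehydrogenase, also belongs to the citric acid cycle. Sdhb, its iron-sulfur subunit, measured 12.61, 12.79 and 12.68 in control and 12.50, 12.67 and 12.43 in source water, a difference of -0.16 ± 0.11 (limma adjusted p = 0.989). Only source water array 2 reached into the control range. The flavoprotein gene Sdha differed by -0.03 ± 0.11 and the membrane anchor gene Sdhc by -0.07 ± 0.13.

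Sdhd, the other membrane anchor, carried the smallest limma p-value of any subunit probe set. On its brightest probe set it measured 11.97, 11.75 and 11.76 in control and 11.70, 11.55 and 11.75 in source water, a difference of -0.16 ± 0.11. On the other, of the x type that may bind related sequences, it measured 9.40, 9.07 and 9.24 in control and 8.79, 8.70 and 9.15 in source water. That difference was -0.36 ± 0.15, with an unadjusted p of 0.0449 and a limma adjusted p of 0.802. The groups overlapped on both, since source water array 3 lay above control array 2. Without source water array 3 the x-type probe set differed by -0.49 (limma unadjusted p 0.00888, adjusted p 0.603), and without source water array 2 by -0.27 (unadjusted p 0.148, adjusted p 0.991). The ranking depends on the statistic. With the unmoderated statistic the x-type probe set had an unadjusted p of 0.0998, and the brightest probe set of Ndufv2 had 0.00481. In the authors' deposited table a probe set of Atp5g1 had the smallest p-value of the subunits.

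In complex III, the Rieske iron-sulfur gene Uqcrfs1 measured 12.03, 11.87 and 11.93 in control and 11.84, 11.79 and 11.85 in source water, and every source water array was below every control array. The difference was -0.11 ± 0.10 (limma adjusted p = 0.999). Uqcrq, a small subunit, measured 12.78, 12.79 and 12.77 against 12.70, 12.63 and 12.75 without overlap, and differed by -0.09 ± 0.10. Its dim probe sets differed by -0.13 to 0.07. The core genes Uqcrc1 and Uqcrc2 differed by -0.03 ± 0.12 and -0.13 ± 0.14, with groups that overlapped.

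Uqcr10, another small subunit, showed how 1 array can set a difference. Its brightest probe set measured 11.97, 12.34 and 12.27 in control and 12.22, 12.22 and 11.99 in source water, a difference of -0.05 ± 0.13. A dim probe set measured 7.53 in control 1 but 5.18 and 5.08 in controls 2 and 3, and 5.05, 4.81 and 5.20 in source water. Control 1 alone stood apart there. The difference of that probe set was -0.91 ± 0.57 with all arrays and -0.11 without control array 1. A further one measured 6.87 in control 1 and 5.88 to 6.00 on the other 5 arrays, and its difference went from -0.35 to -0.06.

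Probe sets of Atp5a1, the alpha subunit of ATP synthase, and of Ndufab1, an acyl carrier protein that also sits in complex I, followed another pattern. One probe set of Atp5a1 measured 7.25, 8.56 and 8.36 in control and 8.33, 8.51 and 7.11 in source water. One of Ndufab1 measured 6.82, 7.84 and 8.0 in control and 7.64, 7.88 and 6.40 in source water. Control 1 and source water 3 were low on both, well outside the range of the other 4 arrays, and the group means were within the spread. On the brightest probe sets of the same genes these arrays were not low, with 12.70 and 12.63 for Atp5a1 against 12.49 to 12.55 on the other 4 arrays, and 11.38 on both for Ndufab1. The array's 3' control probe set for 18S ribosomal RNA was also lowest on these arrays, at 13.12 on control 1 and 12.35 on source water 3 against 13.61 to 13.78 on the other 4. Its middle probe set was low there too, at 13.02 and 12.27 against 13.28 to 13.61. The 5' probe set for 18S was not, with 14.18 on control 1 and 13.87 on source water 3 against 13.82 to 14.10. The part of ribosomal RNA in the values of Atp5a1 and Ndufab1 was not tested.

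**Figure D4:**
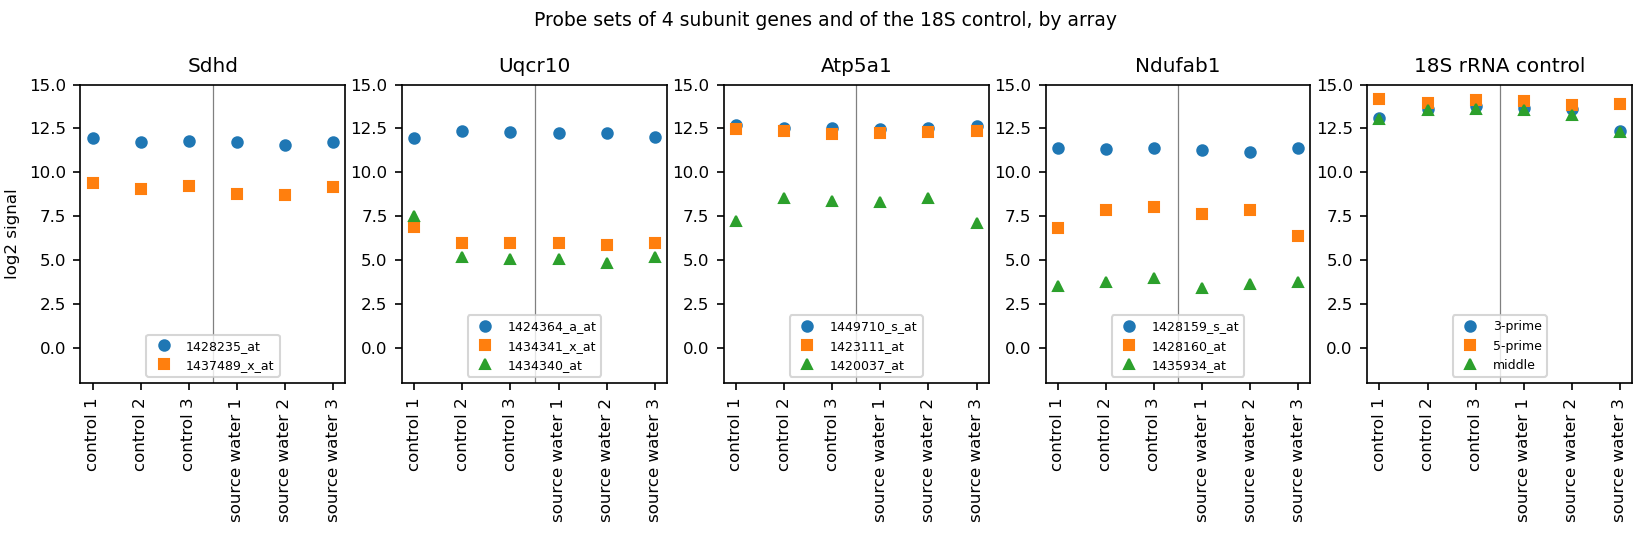
Log2 signal of each probe set of Sdhd, Uqcr10, Atp5a1 and Ndufab1 and of the 18S ribosomal RNA control on each of the 6 arrays, with a line between control and source water (levels of different probe sets are not comparable). Control 1 stands apart on the dim probe sets of Uqcr10, and control 1 and source water 3 are low on 1 probe set each of Atp5a1 and Ndufab1 and on the 3' and middle 18S control.

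Complex IV gave the most even split between higher and lower genes. Cox4i1, the broadly expressed form of subunit 4, measured 13.20, 13.07 and 13.13 in control and 13.10, 13.19 and 13.18 in source water, a difference of 0.02 ± 0.10. Cox5b differed by 0.06 ± 0.11 and Cox5a by -0.11 ± 0.10. Cox7a2l, known from the joining of complexes III and IV into supercomplexes, a role not tested here, had the most negative difference of complex IV. It measured 11.12, 11.01 and 11.28 in control and 11.02, 10.90 and 11.04 in source water, a difference of -0.15 ± 0.11 (limma adjusted p = 0.999). Its other probe sets differed by -0.19 and -0.13, both without overlap.

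Several complex IV subunits exist as forms used in different tissues, and the forms known from liver and the others can be set side by side. Cox6a1, Cox6b1, Cox7a2 and Cox8a, the broadly expressed forms, differed by 0.05, 0.00, -0.04 and 0.08. Of the forms known from heart and skeletal muscle, Cox6a2 measured 6.47 to 6.79, Cox7a1 4.15 to 4.76 and Cox8b 4.74 to 5.32 over the 6 arrays, and they differed by -0.02, -0.11 and 0.12. Cox4i2, known from lung, measured 5.44 to 5.87 and differed by -0.11, and the testis form Cox8c measured 7.32 to 7.69 and differed by -0.02. Cox7a1, Cox8b and Cox4i2 had mean signals under 6, where an array understates differences. Cox7c, which is not such a form, also had low signals of 4.06 to 4.42 and gave a difference of 0.02, so its level cannot be judged from these probe sets.

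Cox6b2, known as the testis form of subunit 6b, had the most positive difference of all 79 genes. It measured 4.93, 5.23 and 4.94 in control and 5.96, 5.17 and 5.19 in source water, and source water array 1 alone lay above the control arrays. The difference was 0.41 ± 0.22 (limma adjusted p = 0.944) and became 0.15 without source water array 1. Cox6b2 also had a mean signal under 6.

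In ATP synthase the genes of the catalytic core had differences near 0. Atp5b, the beta subunit, measured 13.53, 13.21 and 13.19 in control and 13.28, 13.21 and 13.28 in source water, with control array 1 the highest, and differed by -0.05 ± 0.12. Atp5a1 differed by -0.04, the gamma subunit gene Atp5c1 by -0.04 and Atp5o, part of the stalk that holds the core, by -0.03. The genes Atp5g1, Atp5g2 and Atp5g3 encode the same mature protein of the rotor ring. Atp5g1 measured 12.28, 12.31 and 12.22 in control and 12.09, 12.19 and 12.20 in source water without overlap, a difference of -0.11 ± 0.10 (limma adjusted p = 0.999). The others differed by 0.04 and -0.06, with overlap, and a dim probe set of Atp5g2 by -0.27.

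Atp5md and Atp5mpl encode small membrane proteins of the ATP synthase. Atp5md measured 11.56, 11.63 and 11.70 in control and 11.49, 11.53 and 11.46 in source water, without overlap, and differed by -0.14 ± 0.10 (limma adjusted p = 0.996). Atp5mpl differed by -0.12 ± 0.11, with overlap.

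The subunit genes outside the rule for named genes stayed within a narrow range as well. Their differences ran from -0.13 to 0.18 in complex I (26 genes, with Ndufv3 the highest), down to -0.09 in complex III (3 genes), from -0.06 to 0.02 in complex IV (2 genes) and from -0.12 to 0.01 in complex V (8 genes). Ndufa4, kept with complex I by its symbol although its human protein is now counted with complex IV, differed by -0.04. The 8 probe sets with several symbols differed by -0.21 to 0.16, with 0 at an unadjusted p under 0.05.

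Arrays of 1 group scattered little for these genes. The median within-group SD over the 79 genes was 0.093, against 0.107 for genes at least as bright as the median subunit and 0.165 for all genes. It was 0.077 for complex V and 0.112 for complex IV, which holds most of the dim tissue forms.

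Promoter letters, which the rule did not use, were counted as a further description. RefSeq promoter windows of build GRCm38.p6, 250 bases before to 50 after a start, were matched for 65 of the 79 genes. Letters known from sites of factors that drive nuclear genes of mitochondria were searched on both strands. The core of an NRF1 site, GCGCATGC, was found in 9 of 65 genes (13.8%) and in 3.05% of all 27025 genes in the table. The core of the ETS factor GABP, CCGGAAG, was found in 17 (26.2%, against 9.93% of all genes), and letters of a YY1 site, AAGATGGC, in 9 (13.8% against 3.19%). In contrast TATAAA was in 7 (10.8% against 15.7%). At least 1 of the NRF1, ETS and YY1 letters was in 29 of the 65 genes, so most held none. Matches of different motifs overlapped in 0 of the subunit windows. The median number of CG dinucleotides in a window was 19 for subunits and 8 for all genes. These are letter matches, not shown to be bound sites, and no test was run on their shares.

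Windows are printed for Sdhd, whose x-type probe set had the smallest limma p of the subunits, and for a core subunit with the NRF1 letters (Uqcrc1). Also printed are those of the broad and testis forms of subunit 6b and of a muscle form with the letters TATAAA (Cox8b). Capitals mark the letters found, which are the ETS core on the reverse strand in Sdhd and Cox6b1, the NRF1 core read on both strands in Uqcrc1 and TATAAA in Cox8b. The window of Cox6b2 holds none of the 4 motifs.
Sdhd, chr9:50603800-50604099, minus strand: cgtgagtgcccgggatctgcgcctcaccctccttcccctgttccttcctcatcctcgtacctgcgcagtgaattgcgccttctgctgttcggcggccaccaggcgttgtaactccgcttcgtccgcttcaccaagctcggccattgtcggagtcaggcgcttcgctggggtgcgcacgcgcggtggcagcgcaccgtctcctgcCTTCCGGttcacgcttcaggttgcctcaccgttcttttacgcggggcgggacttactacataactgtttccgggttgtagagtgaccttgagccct
Uqcrc1, chr9:108936398-108936697, plus strand: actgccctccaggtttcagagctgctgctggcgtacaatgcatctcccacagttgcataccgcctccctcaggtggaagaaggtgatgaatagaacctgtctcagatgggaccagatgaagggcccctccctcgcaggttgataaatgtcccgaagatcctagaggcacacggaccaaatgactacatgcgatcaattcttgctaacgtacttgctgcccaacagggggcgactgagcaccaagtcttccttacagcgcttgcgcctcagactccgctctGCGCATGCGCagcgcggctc
Cox6b1, chr7:30626065-30626364, minus strand: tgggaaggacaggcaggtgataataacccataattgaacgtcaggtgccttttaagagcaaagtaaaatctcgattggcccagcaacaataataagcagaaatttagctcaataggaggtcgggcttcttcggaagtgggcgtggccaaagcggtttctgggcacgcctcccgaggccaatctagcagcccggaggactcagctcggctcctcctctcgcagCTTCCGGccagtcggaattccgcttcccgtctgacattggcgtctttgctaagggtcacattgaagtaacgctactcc
Cox6b2, chr7:4753045-4753344, minus strand: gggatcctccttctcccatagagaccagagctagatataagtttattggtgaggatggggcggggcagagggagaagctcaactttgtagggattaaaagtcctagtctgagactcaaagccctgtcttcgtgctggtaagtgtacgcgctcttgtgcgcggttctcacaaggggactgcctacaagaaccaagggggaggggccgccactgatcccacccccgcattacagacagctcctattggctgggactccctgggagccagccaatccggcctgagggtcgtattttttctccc
Cox8b, chr7:140900397-140900696, minus strand: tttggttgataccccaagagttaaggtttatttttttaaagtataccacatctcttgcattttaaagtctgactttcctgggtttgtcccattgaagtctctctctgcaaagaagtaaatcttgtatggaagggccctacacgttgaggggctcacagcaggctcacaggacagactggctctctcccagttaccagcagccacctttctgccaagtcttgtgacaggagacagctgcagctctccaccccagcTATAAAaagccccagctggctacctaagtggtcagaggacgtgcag
CG dinucleotides number 29 in the window of Sdhd, 15 in that of Uqcrc1, 17 in that of Cox6b1, 10 in that of Cox6b2 and 2 in that of Cox8b.

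Genes that build, serve or regulate the chain differed by more than its subunits did in some cases. In these lists 0 genes passed the adjusted limma test, with Sco2 at the threshold. Of 45 assembly factors 33 were measured, 22 lower and 11 higher, and 3 had an unadjusted p under 0.05 (9.09%, against 6.76% of all genes, 4.16% higher and 2.6% lower), 1 higher and 2 lower. Sco2, which delivers copper to complex IV, was represented by a probe set of the s type, which may bind related transcripts. It measured 9.42, 9.47 and 9.30 in control and 10.48, 10.39 and 10.22 in source water (limma adjusted p = 0.0516). Its difference of 0.97 ± 0.11 had an adjusted p of 0.0393 with the replicate numbers as a block, 0.0463 with arrays centred on their medians and 0.0195 with limma-trend, and between 0.0506 and 0.357 in the other settings that gave one. Coa6, another copper factor of complex IV, measured 10.38, 10.48 and 10.49 in control and 9.57, 9.51 and 9.97 in source water, a difference of -0.77 ± 0.14 (adjusted p = 0.15). Ndufaf4, an assembly factor of complex I, differed by -0.81 ± 0.12. These groups did not overlap.

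Of 15 measured electron carriers and partners, 9 were lower and 6 higher. An unadjusted limma p under 0.05 was found for 3 of them (20%), 2 higher and 1 lower. Over all genes the share was 6.76% (4.16% higher, 2.6% lower). Cytochrome c, Cycs, which carries electrons from complex III to IV, measured 12.49, 12.45 and 12.79 in control and 12.26, 12.28 and 12.32 in source water. All source water arrays were below the control arrays, and the difference was -0.29 ± 0.12 (limma adjusted p = 0.788). Without control array 3, the highest, it was -0.18 (limma unadjusted p 0.152, adjusted p 1). Etfdh, which feeds electrons from fatty acid oxidation to ubiquinone, measured 10.84, 10.61 and 10.93 in control and 11.42, 11.12 and 11.35 in source water, a difference of 0.50 ± 0.13 (adjusted p = 0.407). Gpd2, the glycerophosphate dehydrogenase of the inner membrane, differed by 0.27 ± 0.11. The count of 3 became 1 without control array 3, source water array 2 or source water array 3.

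The gene lists here were chosen with earlier results of these data known, and no test was run on their shares. Of 16 measured regulators of mitochondrial biogenesis and DNA, 6 had an unadjusted limma p under 0.05, 2 higher and 4 lower. That is 37.5% against 6.76% of all genes. The count was 3 without control array 1, control array 2, source water array 1 or source water array 3, and 2 with the unmoderated statistic, beside 6.27% of all genes. Polg2, an accessory subunit of the mitochondrial DNA polymerase, measured 7.58, 7.69 and 7.70 in control and 6.94, 6.82 and 7.09 in source water, a difference of -0.71 ± 0.11 (limma adjusted p = 0.0972). The coactivator gene Ppargc1b and the nuclear receptor gene Esrra, which act on promoters of respiratory genes, differed by -0.42 ± 0.18 and -0.40 ± 0.16, with overlap. The mitochondrial transcription factor gene Tfb2m differed by -0.64 ± 0.24, with 8.93, 7.83 and 8.52 in control, and by -0.39 without control array 1 (limma unadjusted p 0.0951, adjusted p 0.949), whereas Tfb1m differed by 0.36 ± 0.14 and the coactivator gene Pprc1 by 0.33 ± 0.10. The probe set of Tfb1m is of the s type, which may bind related transcripts. Ppargc1b differed by -0.27 without control array 1 (limma unadjusted p 0.161, adjusted p 0.949). Without source water array 3, Esrra differed by -0.28 (limma unadjusted p 0.111, adjusted p 0.971) and Tfb1m by 0.24 (limma unadjusted p 0.12, adjusted p 0.976). Of 74 genes of the mitochondrial ribosome, 52 were lower, with a median of -0.037, beside 50.5% and -0.002 over all genes. Only 1 (1.35%, against 6.76% of all genes) had an unadjusted limma p under 0.05, Mrps6 (0.50 ± 0.12, adjusted p = 0.304). No probe set carried a symbol of a gene of mitochondrial DNA under the list searched.

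**Figure D5:**
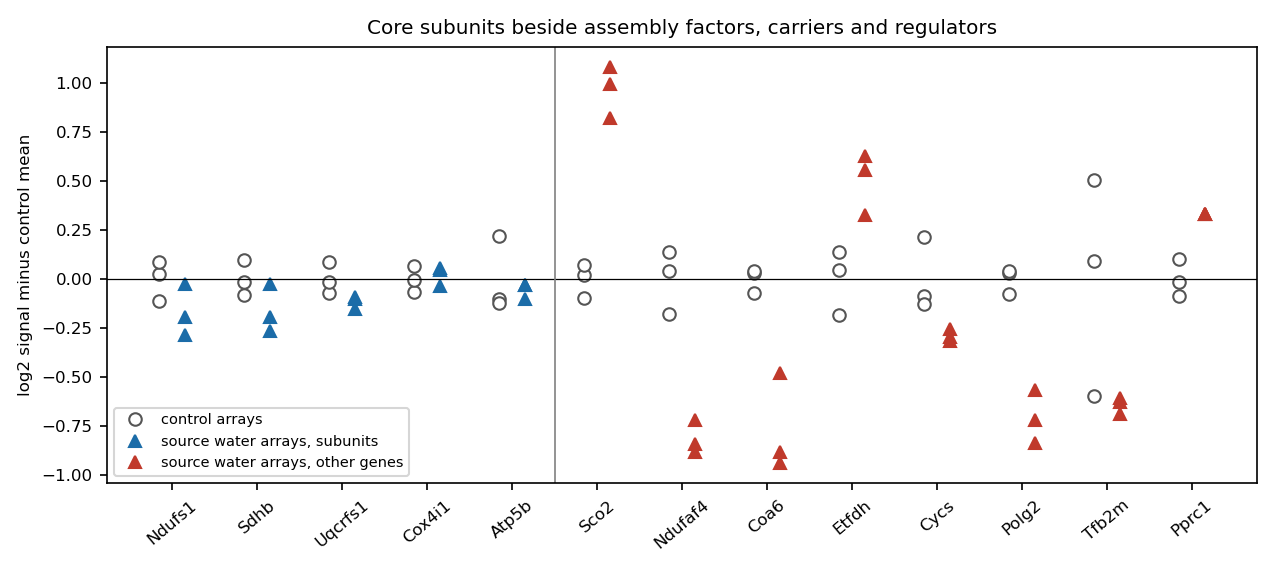
Log2 signal minus the control mean on each array, for 5 core subunits (left, source water in blue) and 8 other genes (right, source water in red). The 8 were picked from assembly factors, carriers and regulators with an unadjusted limma p under 0.05, so that their separation is a description. Gpd2, Esrra, Tfb1m and Ppargc1b, also under 0.05, are not drawn. All points of the 5 subunits stay within about 0.3 of the control mean.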

How the data were processed

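RNA of 6 liver pools was hybridised to 6 one-colour Affymetrix 3' expression arrays. Per the submitters' processing notes, the deposited log2 values were made with RMA and Partek, with no version or setting stated. A further table, also deposited by the authors, holds group means, p-values, ratios and a signed fold change (a score here) per probe set, and its test is not named.

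From these log2 values, 64 control probe sets were left out and 22626 tested with limma 3.58.1 in R 4.3.3 (lmFit, eBayes, 2 groups). P-values were adjusted by Benjamini-Hochberg over all probe sets, with a threshold of 0.05. SE and 95% intervals are the moderated ones. Platform gene symbols were compared by Entrez identifier with a table of GRCm38.p6 (20351 of 20380 single-symbol probe sets matched, 0 symbols changed). A gene was represented by its probe set of highest mean. Probe sets ending in s or x may bind related transcripts.

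Members and lists were chosen with earlier results of these data known, so no test was run over a list. Named were, per complex, the 3 genes of smallest p, members with an unadjusted p under 0.05, core subunits, tissue forms and genes whose probe sets differ by over 0.3. Of the other lists, genes with an unadjusted p under 0.05 were named. The fit was tested on simulated data. Arrays have no depth, so their number limits precision. The labels do not say how mice were assigned to pools, and no scan date was used. Alternatives were a replicate block, other normalization and centring, filters on dim probe sets, other variance models, averaging the probe sets of a gene, and omitting each array in turn. The NRF1 letters were shortened from a longer palindrome after its matches had been counted.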

Additional observations from a re-analysis of the deposited data

How the results depend on the processing

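The count of 0 subunit probe sets past the adjusted threshold was the same under each alternative run, and the median over the 79 genes stayed between -0.059 and -0.029 (53 to 60 genes lower). The count of 1 at an unadjusted p under 0.05 became 0 after centring on array medians and with either filter on dim probe sets (above the median level, or a mean of at least 6), 8 with the unmoderated statistic, and 0 to 2 when 1 array was left out. Over all probe sets the adjusted count of 9 became 30 with a repeated quantile normalization and 35 with limma-trend. It became 0 with the unmoderated statistic and 0 to 14 with 1 array left out. A run with 0 over all probe sets could only give 0 for the subunits. In a fit that took the numbers as a replicate block the count over all probe sets was 45, while the subunit counts stayed at 0 and 1. Same-numbered arrays deviated together at -0.07, 0.28 and 0.17, which does not show that the numbers pair the pools. With 1 array left out, the median ran from -0.143 to -0.040 in complex II, from -0.065 to -0.016 in complex V and from -0.034 to 0.021 in complex IV. The causes of these moves were not tested. Of 40 named subunits, 17 changed sign in at least 1 run with an array left out. Their differences ran from -0.09 to 0.01 (Atp5a1), -0.11 to 0.05 (Atp5b), -0.01 to 0.10 (Atp5g2), -0.01 to 0.05 (Cox4i1), just below 0 to 0.11 (Cox5b), -0.10 to 0.08 (Cox6a2), -0.06 to 0.06 (Cox6b1), -0.22 to 0.05 (Cox7a1), -0.10 to 0.03 (Cox7a2), -0.02 to 0.20 (Cox8b), -0.10 to 0.07 (Cox8c), -0.07 to 0.02 (Ndufs3), -0.11 to 0.02 (Ndufv1), -0.10 to 0.01 (Sdha), -0.16 to 0.03 (Sdhc), -0.16 to 0.03 (Uqcr10) and -0.11 to 0.06 (Uqcrc1). Otherwise Cox6b1 turned to -0.01 after a repeated quantile normalization, and Atp5g2 and Atp5o to -0.11 and 0.03 as means of their probe sets. Of the named genes, Sco2 alone crossed the adjusted threshold, at 0.0393 with the replicate block, 0.0463 after centring and 0.0195 with limma-trend. With 3 arrays a group, a count of 0 does not show that smaller differences are absent.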
